A study of Mus musculus with 12 samples.

Results

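The expression of 7 genes that handle vitamin A and its derivatives (retinoids) was examined in the epithelium of the mouse small intestine after experimental stroke. They were chosen by name and function, with earlier results of these data known, and all 7 were among the 15855 genes of the count table. The set held Rbp2, Lrat, Rdh7, Dhrs3, Aldh1a1, Isx and Scarb1. Adult C57BL6/J mice, male by the study's methods, underwent permanent middle cerebral artery occlusion (pMCAO), in which a main artery of the brain is closed and not reopened, or a sham operation without the occlusion. At 24 h after surgery, EpCAM-positive epithelial cells were sorted from the whole small intestine of 7 sham-operated and 5 pMCAO mice and their RNA was sequenced. Any further animal of the study was not analysed here. The labels name no transgene or drug treatment for either group. The comparison asked which of these genes differed between sham-operated and pMCAO mice.

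Dietary vitamin A reaches the enterocyte, the absorptive cell of the gut, as retinol or as carotenoids such as β-carotene. Retinol is bound inside the cell, esterified and packed into chylomicrons, while a smaller part is oxidised to retinal and then to retinoic acid, the ligand of nuclear receptors. Retinoic acid induces the transcription factor ISX, which represses the carotenoid uptake receptor Scarb1 and the carotenoid-cleaving enzyme Bco1 and so closes a feedback loop on vitamin A production. Nuclear receptors of this class bind hexamers related to AGGTCA, often as direct repeats.

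Because ISX and the retinoid receptors act on promoters, 3 promoter windows are shown, those of Bco1, Rbp2 and Rdh7. Bco1 was chosen as the other textbook target of ISX, and Rbp2 and Rdh7 as the genes with the highest level and with the smallest unadjusted p of the set. Each is the 250 bases before the RefSeq start (GRCm38.p6), written 5′ to 3′ on the strand of the gene. Capitals mark the receptor hexamer AGGTCA and its variant AGTTCA, and the start site element TATAAA, on either strand. The Bco1 window lies at chr8:117095615-117095864 (plus strand), the Rbp2 window at chr9:98490287-98490536 (plus strand) and the Rdh7 window nearest to the annotated start of the gene at chr10:127888734-127888983 (minus strand). The RefSeq start of Rbp2 lies 4422 bases inside the longer GENCODE model of the gene, and the Rdh7 window reaches 84 bases into the GENCODE model.
Bco1: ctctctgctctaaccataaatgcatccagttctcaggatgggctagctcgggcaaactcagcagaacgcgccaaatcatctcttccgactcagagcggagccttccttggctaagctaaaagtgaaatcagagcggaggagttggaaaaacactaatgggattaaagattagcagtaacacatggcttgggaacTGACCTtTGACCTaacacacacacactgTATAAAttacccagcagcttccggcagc
Rbp2: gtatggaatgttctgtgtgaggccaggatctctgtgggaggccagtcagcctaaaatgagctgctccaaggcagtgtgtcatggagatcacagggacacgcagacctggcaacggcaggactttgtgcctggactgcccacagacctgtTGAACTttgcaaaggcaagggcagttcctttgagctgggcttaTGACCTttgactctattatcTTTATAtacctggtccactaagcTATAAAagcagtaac
Rdh7: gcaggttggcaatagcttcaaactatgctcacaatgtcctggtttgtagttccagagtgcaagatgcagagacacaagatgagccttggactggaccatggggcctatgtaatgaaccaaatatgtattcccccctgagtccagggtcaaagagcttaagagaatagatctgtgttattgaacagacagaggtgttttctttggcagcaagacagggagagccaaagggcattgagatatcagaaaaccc

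The Bco1 window held a direct repeat of AGGTCA with a single base between the copies, read on the minus strand, and a TATAAA. This repeat (AGGTCANAGGTCA, either strand) was found in 11 of 32851 RefSeq windows of the same length, or 0.0335%. The Bco1 window is itself among those counted, and the spacing counted was the one that it holds. The share is therefore a description and not a test of Bco1. The Rbp2 window held 1 AGGTCA, 1 AGTTCA and 2 matches to TATAAA, and the Rdh7 window held none of them. A second RefSeq window of Rdh7, at chr10:127889248-127889497, held 1 AGGTCA. RefSeq windows were at hand for 6 of the 7 genes, not for Scarb1, and 1 of the 6 windows nearest to the gene start (that of Rbp2) held AGGTCA or AGTTCA, which 24.2% of all windows held. AGGTCA alone was found in 14.0%, AGTTCA in 11.8% and TATAAA in 12.4% of all windows. Repeats with other spacings or with variant hexamers were not counted, and no site of ISX was searched for. These are matches of letters and were not tested as binding sites.

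Total counts ranged from 7418730 to 31925579 per sample. The samples also differed in ways that the groups do not explain. Their titles carry a library number, and the 4 samples numbered 58 to 61 (library-number block 1, with 3 sham and 1 pMCAO) had between 13386 and 14712 genes detected, against 15343 to 15766 in the other 8. In block 1 the summed level of 7 goblet cell markers was 4133 to 8117 CPM (counts scaled to the library total), against 20588 to 55208 CPM elsewhere, and that of 7 enteroendocrine markers was 199 to 402 against 1644 to 3443 CPM. Tuft cell markers summed to 16.2 to 43.4 CPM in block 1 and 150 to 699 CPM elsewhere, with 6 of 6 in the table. Summed leukocyte markers, with 8 of 8 in the table, spanned 58.5 to 308 CPM in sham and 74.4 to 344 CPM in pMCAO samples. All 6 epithelial markers were in the table (2698 to 5195 CPM summed in sham, 2561 to 5954 CPM in pMCAO), while 1 of 9 markers of stroma and endothelium was, at 5.25 CPM or less. Group differences are therefore given without and with the library-number blocks, and for the 7 genes also within blocks 1, 2 and 3. Block 2 held 2 sham and 2 pMCAO samples, and block 3 held 1 sham and 2 pMCAO samples. Within-block differences thus rest on 1 pMCAO sample in block 1 and on 1 sham sample in block 3. Block 4 was sham replicate 7 alone, which adds nothing to a group difference fitted with blocks. In these bulk samples, fewer cells of a type and less RNA per cell cannot be told apart.

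Per kilobase of exon, the 7 genes spanned a wide range of levels. Rbp2 was by far the highest, at 745 CPM per kb ± 342 (SD, n = 12), and the mean of Isx, the next, was 24.7 CPM per kb ± 9.06 (SD, n = 12), which put Rbp2 30.1-fold above it. Aldh1a1 followed at 12.3 ± 6.65 and Rdh7 at 10.6 ± 7.11 CPM per kb (SD, n = 12). Rbp2 exceeded Isx in 12 of 12 samples and Isx exceeded Aldh1a1 in 11 of 12, but Aldh1a1 exceeded Rdh7 in only 8 of 12, within the spread of both. That order held in sham samples (10.8 ± 6.68, SD, n = 7, for Aldh1a1 and 6.51 ± 2.57 CPM per kb for Rdh7) and was the opposite in pMCAO samples (14.6 ± 6.65, SD, n = 5, for Aldh1a1 and 16.2 ± 7.76 CPM per kb for Rdh7). Dhrs3 (3.19 ± 0.952) and Lrat (3.07 ± 1.10 CPM per kb, SD, n = 12) were not separable either, with Dhrs3 above Lrat in 7 of 12 samples. Scarb1 was lowest, at 0.750 CPM per kb ± 0.559 (SD, n = 12), and lay under Lrat in 11 of 12 samples. Exon lengths are the union of annotated exons, from 962 nt for Rbp2 to 8500 nt for Scarb1, so a gene of which only a shorter transcript is made appears too low.

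**Figure D1:**
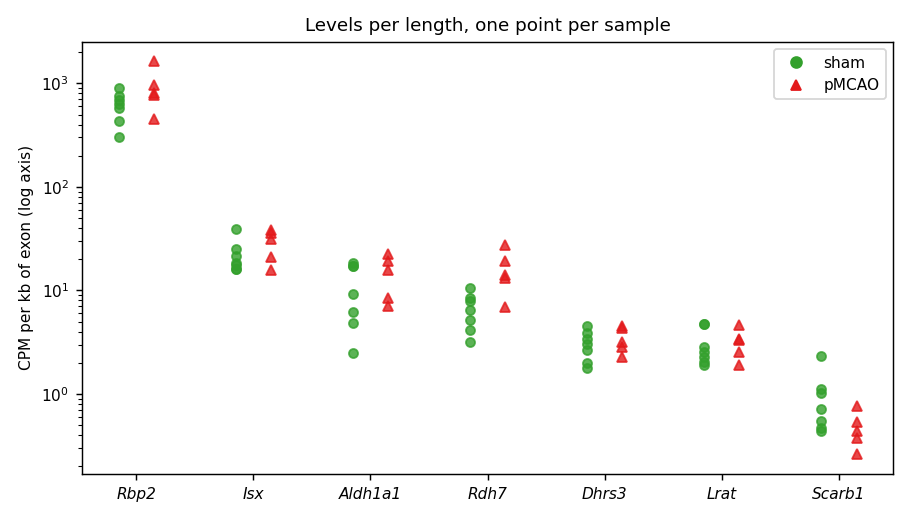
Level of each gene per kilobase of exon (CPM per kb, log axis) in 7 sham (circles) and 5 pMCAO samples (triangles), 1 point per sample, ordered by the mean. Rbp2 stood above all others in every sample, and Scarb1 had the lowest mean, 0.750 CPM per kb.

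The fit on group alone called 0 of the 7 genes by the study's thresholds, an adjusted p up to 0.05 and a log2 fold change of 1 or more in either direction. It called 0% of the 14462 genes tested, and so did edgeR's quasi-likelihood test, while DESeq2 called 70 genes, Rdh7 among them. Of the 7 genes 1 (Rdh7) had an unadjusted p under 0.05, against 8.43% of all genes. The fitted log2 fold change was positive for 5 genes and negative for 2 (Scarb1 and, at -0.01, Lrat, whose mean CPM was higher in pMCAO mice), with a median log2 fold change of 0.29 against 0.06 over all genes. With library-number blocks, 0 of the 7 were called, against 0.325% of all genes, 1 had an unadjusted p under 0.05 (again Rdh7), against 12.7%, and the median was 0.27 against 0.01. The values of the 2 groups overlapped for each of the 7 genes, and failed to overlap for 0.505% of all genes tested.

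**Figure D2:**
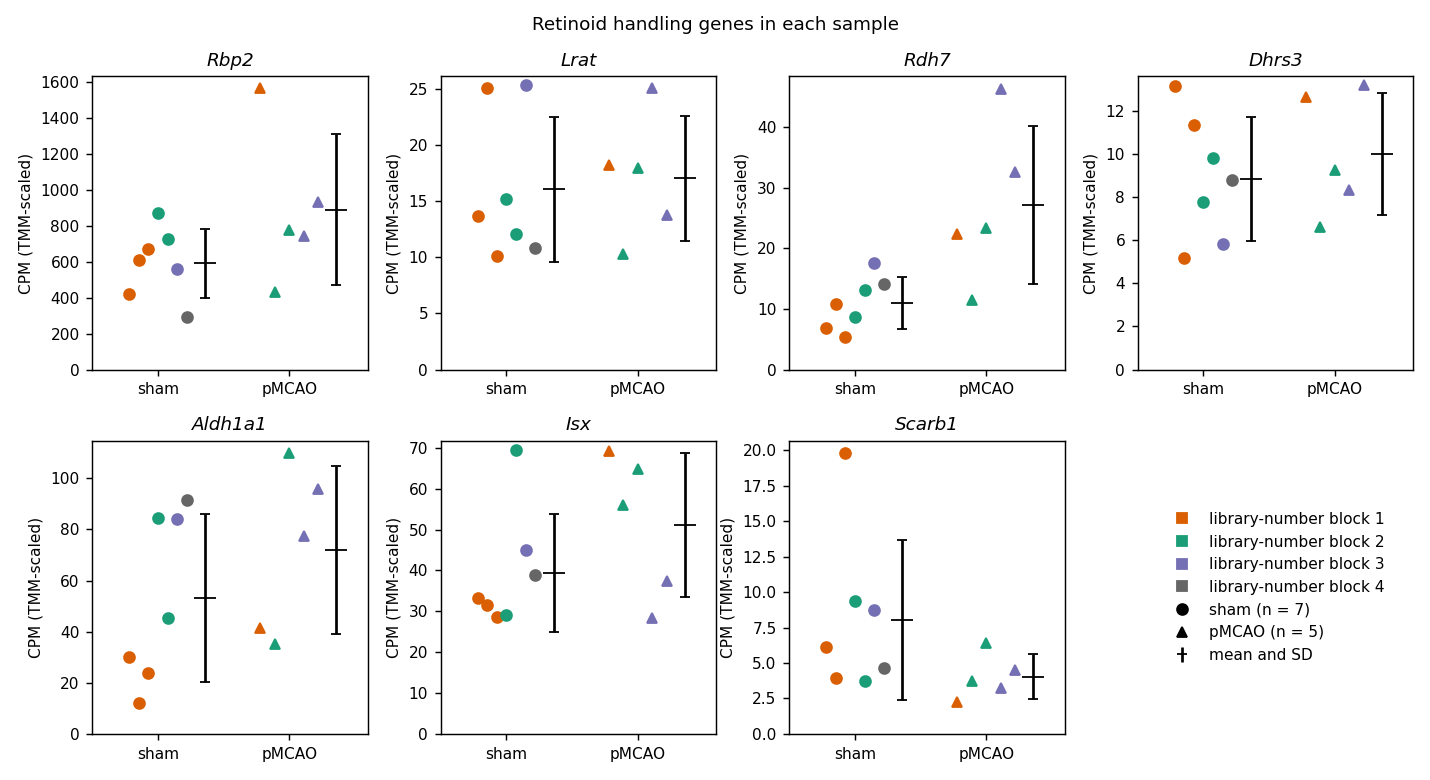
TMM-scaled CPM (linear axes from 0) of the 7 genes in sham (circles, n = 7) and pMCAO samples (triangles, n = 5), coloured by library-number block, with the mean and SD of each group. The groups overlapped for every gene, and were most nearly apart for Rdh7, where 4 pMCAO samples lay above the highest sham sample.

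Rbp2 (ENSMUSG00000032454, chr9:98486115-98509781, plus strand, GRCm38) encodes the cellular retinol binding protein of the enterocyte, which carries newly absorbed retinol to esterification. In sham-operated mice its level was lowest at 293, median 610 and highest at 870 CPM. The 5 pMCAO samples measured 1569, 431, 776, 743 and 935 CPM in replicates 1 to 5. Replicates 1 and 5 lay above the highest sham sample, and the other 3 lay inside the sham range. Means were 593 CPM ± 192 (SD, n = 7) and 891 CPM ± 421 (SD, n = 5), and the log2 fold change of 0.57 (SE 0.31, 95% interval -0.09 to 1.22) did not pass the test (adjusted p = 0.629). With blocks it was 0.43 (SE 0.27, adjusted p = 0.531), and within blocks 1, 2 and 3 the log2 differences were 1.496, -0.46 and 0.57, so the direction was not shared. Replicate 1 of pMCAO weighed most. Without it the log2 fold change was 0.32, and with blocks -0.03. That sample also had the highest summed level of 8 enterocyte markers, 56528 CPM against 15962 to 28176 CPM in the other 11 samples, and of 6 markers of the proximal small intestine, 8527 CPM against at most 5532 CPM. In pMCAO replicate 1 a single gene, Ada, made up 7012 CPM of the proximal sum. Sham replicate 7, with the lowest Rbp2, had the lowest proximal sum, 1526 CPM. Whether these marker levels account for part of the Rbp2 values was not tested.

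Lrat (ENSMUSG00000028003, chr3:82892579-82903973, minus strand) encodes lecithin:retinol acyltransferase, which makes the retinyl esters that leave in chylomicrons. Sham samples spanned 10.1 to 25.3 CPM with a median of 13.7, and pMCAO samples measured 18.2, 10.3, 17.9, 25.04 and 13.7 CPM. All pMCAO samples lay inside the sham range. With means of 16.03 CPM ± 6.49 (SD, n = 7) and 17.04 CPM ± 5.55 (SD, n = 5), the log2 fold change was -0.01 (SE 0.28, adjusted p = 0.994). Its 95% interval, -0.61 to 0.59, leaves room for a moderate change in either direction. The value was -0.15 (SE 0.26, adjusted p = 0.861) with blocks, and 0.26, 0.0056 and -0.45 within them.

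Rdh7 (ENSMUSG00000040134, chr10:127884028-127888817, minus strand) encodes a microsomal short-chain dehydrogenase that oxidises retinol to retinal and also acts on steroids. In sham-operated mice the lowest value was 5.31, the median 10.8 and the highest 17.5 CPM. The pMCAO samples measured 22.3, 11.5, 23.4, 46.3 and 32.6 CPM. In pMCAO mice 4 of 5 samples exceeded the highest sham sample, while replicate 2 lay inside the sham range. Means were 10.9 CPM ± 4.30 (SD, n = 7) and 27.2 CPM ± 13.03 (SD, n = 5). The log2 fold change was 1.01 (SE 0.36, 95% interval 0.25 to 1.77), with an unadjusted p of 0.0127 but an adjusted p of 0.478, so it did not pass. With blocks it was 1.00 (SE 0.28, 95% interval 0.41 to 1.59, adjusted p = 0.142), and the log2 difference was positive within each block, at 1.59, 0.62 and 1.14. The call depended on the tool. DESeq2 called it without blocks (log2 fold change 1.28, adjusted p = 0.0497) and with them (1.07, adjusted p = 0.0204), and limma-voom with blocks called it without pMCAO replicate 2 (1.17, adjusted p = 0.0246). Over all alternatives the log2 fold change stayed between 0.73 and 1.58, with adjusted p-values from 0.0204 to 0.803. Of the longest Rdh7 transcript, 359 of 1678 nt (21.4%) had at least 95% identity to Rdh16 over stretches of 100 nt or more, with a highest identity of 95.8%. Whether reads there were assigned to the right gene was not tested. The nearest match among other family members, Rdh9, reached 94.0% identity.

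Dhrs3 (ENSMUSG00000066026, chr4:144892827-144928209, plus strand) encodes a reductase that turns retinal back into retinol and so limits retinoic acid, which in turn induces the gene. Sham samples ranged from 5.18 to 13.1 CPM with a median of 8.82, and pMCAO samples were at 12.7, 6.62, 9.25, 8.32 and 13.2 CPM. The groups overlapped over almost their whole range, with 1 pMCAO sample just above the highest sham sample. The means of 8.84 CPM ± 2.87 (SD, n = 7) and 10.01 CPM ± 2.83 (SD, n = 5) gave a difference of 0.20 on the log2 scale (SE 0.28, 95% interval -0.39 to 0.79, adjusted p = 0.865). It was 0.34 (SE 0.30, adjusted p = 0.675) with blocks, and 0.46, -0.16 and 0.84 within them.

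Aldh1a1 (ENSMUSG00000053279, chr19:20492715-20643465, plus strand) encodes a retinal dehydrogenase, the enzyme step that yields retinoic acid. Its sham values had the lowest at 12.2, the median at 45.4 and the highest at 91.4 CPM, a wide spread within 1 group. In pMCAO mice it measured 41.4, 35.1, 109.8, 77.3 and 95.8 CPM. Of these, replicates 3 and 5 exceeded the highest sham sample. Means were 53.1 CPM ± 32.96 (SD, n = 7) and 71.9 CPM ± 32.9 (SD, n = 5), and the log2 fold change was 0.45 (SE 0.44, 95% interval -0.47 to 1.38, adjusted p = 0.789). With blocks the value was 0.20 (SE 0.30, adjusted p = 0.8294), and within them 1.00, 0.0047 and 0.032, so the differences within blocks 2 and 3 were near 0. Without block 1 the log2 fold change was 0.0023.

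Isx (ENSMUSG00000031621, chr8:74873173-74893506, plus strand) encodes the intestine-specific homeobox factor induced by retinoic acid. It measured 28.7 CPM at the lowest, 33.3 at the median and 69.5 at the highest in sham samples, and 69.2, 56.1, 64.7, 28.3 and 37.5 CPM in pMCAO samples. Replicates 1 to 3 of pMCAO lay above all sham samples but replicate 5, while replicate 4 lay just under the lowest sham value. Means were 39.4 CPM ± 14.5 (SD, n = 7) and 51.2 CPM ± 17.6 (SD, n = 5), and the log2 fold change was 0.29 (SE 0.27, 95% interval -0.28 to 0.86, adjusted p = 0.777). It was 0.27 (SE 0.24, adjusted p = 0.687) with blocks, and 1.15, 0.42 and -0.47 within blocks 1, 2 and 3.

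Scarb1 (ENSMUSG00000037936, chr5:125277087-125341094, minus strand) encodes a membrane receptor that takes up carotenoids and lipids and is repressed by ISX. It was the gene of the set with the lowest level per length. Sham samples had a lowest value of 3.70, a median of 6.13 and a highest value of 19.8 CPM, and pMCAO samples measured 2.22, 3.76, 6.43, 3.20 and 4.53 CPM. In sham-operated mice 3 of 7 samples lay above the highest pMCAO sample, and 2 of 5 pMCAO samples lay below the lowest sham sample. The raw counts behind these values ranged from 19 to 342 per sample, the fewest of the 7 genes. Means were 8.05 CPM ± 5.64 (SD, n = 7) and 4.03 CPM ± 1.59 (SD, n = 5). The log2 fold change of -0.61 (SE 0.37, 95% interval -1.38 to 0.17) did not pass (adjusted p = 0.653), nor did it with blocks (-0.69, SE 0.39, adjusted p = 0.485). The difference was negative within each block, at -1.77, -0.26 and -1.18, and under every alternative run, from -1.13 to -0.41.

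**Figure D3:**
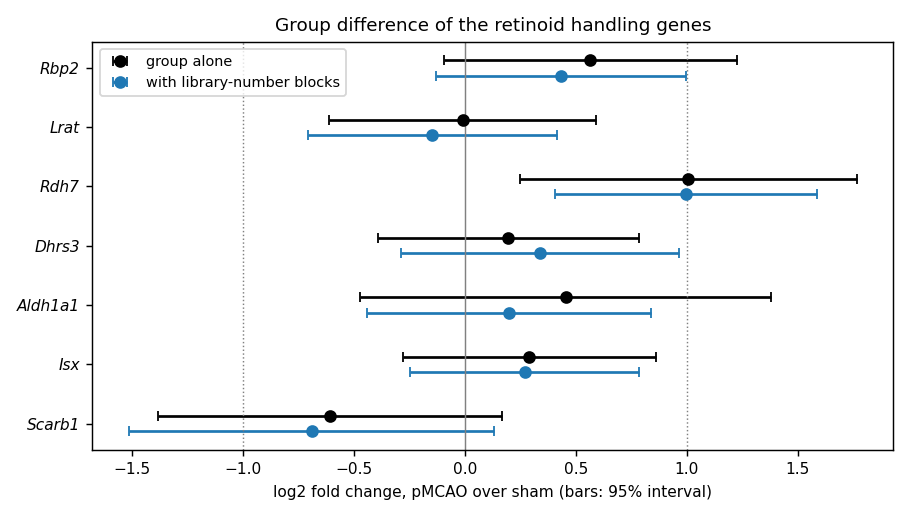
Log2 fold change of pMCAO over sham with its 95% interval for the 7 genes, fitted on group alone (black) and with library-number blocks (blue), with dotted lines at the fold threshold of 1 in each direction. The intervals of Rdh7 alone excluded 0, and its adjusted p-values were 0.478 and 0.142.

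Beyond these 7 genes, 44 further genes of retinoid uptake, binding, esterification, oxidation and reception had been listed, of which 28 were in the table and 26 were tested. On group alone 0 of the 26 were called, 19 had a positive and 7 a negative log2 fold change, against 7986 and 6476 of all genes, and the median was 0.26. With library-number blocks, 1 of the 26 was called, Bco1, which was lower in pMCAO mice, while 0.187% of all genes were called lower, and the median was 0.04. The unadjusted p was under 0.05 for 3 genes on group alone (Bco1, Cd36 and Rdh16) and for 3 with blocks (Bco1, Bco2 and Cd36), beside 8.43% and 12.7% of all genes, so these counts of 26 are not set apart from the background.

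Bco1 (ENSMUSG00000031845, chr8:117095854-117133720, plus strand) encodes the enzyme that cleaves β-carotene into retinal, and its promoter window is the one shown above with the direct repeat. Sham samples measured 6.42 CPM at the lowest, 36.3 at the median and 73.6 at the highest. The pMCAO samples measured 11.1, 6.29, 3.94, 2.48 and 3.09 CPM. In sham-operated mice 6 of 7 samples exceeded the highest pMCAO sample, and only sham replicate 5 lay inside the pMCAO range. Means were 36.3 CPM ± 28.05 (SD, n = 7) for sham-operated and 5.38 CPM ± 3.51 (SD, n = 5) for pMCAO mice. On group alone the log2 fold change was -2.30 (SE 0.61, 95% interval -3.60 to -1.001), which did not pass the adjustment over all genes (adjusted p = 0.309). With blocks Bco1 fell by 2.11 on the log2 scale (SE 0.44, adjusted p = 0.0435), and the difference was negative within each block, at -2.38, -0.92 and -3.73. Bco1 and the 7 genes are absent from the paper's list of differentially expressed genes. That list was corrected for the day of collection and used another number of pMCAO animals. With 1 sample left out in turn the fit with blocks called it in 5 of 12 cases, with log2 fold changes from -2.52 to -1.49. Without sham replicate 6 it was -1.49 (adjusted p = 0.200). DESeq2 called it without blocks (-2.78, adjusted p = 0.00023), and both edgeR (-2.26, adjusted p = 0.0418) and DESeq2 (-2.29, adjusted p = 9.3e-06) called it with them. Without blocks it was not called by edgeR (adjusted p = 0.214), limma-trend (0.202) or sample quality weights (0.136). Nor was it called on group alone in any of the 12 fits with 1 sample left out (lowest adjusted p = 0.098). Without block 1 the value was -2.02 (adjusted p = 0.599). Summed markers of the proximal small intestine overlapped between the groups, at 1526 to 5532 CPM in sham and 1823 to 8527 CPM in pMCAO samples. Ada made up most of that sum, with means of 2926 CPM in sham and 2570 CPM in pMCAO samples. It was called higher in block 1 than in blocks 2 and 3 (log2 difference 1.34, adjusted p = 0.0058). Of the 6 proximal genes, 4 had a positive log2 fold change on group alone (Gata4 0.29, Lct 0.45, Slc40a1 0.50 and Onecut2 0.20). Ada, at -0.39, and Cybrd1, the duodenal iron reductase, were negative. Cybrd1 measured -3.16 (SE 0.95, adjusted p = 0.357) and -2.97 with blocks (SE 0.84, adjusted p = 0.145), at -3.12, -1.42 and -3.18 within them. Its level was low, at 0.44 to 3.27 CPM in sham and 0 to 0.69 CPM in pMCAO samples, so these values rest on few reads. The other 5 had an unadjusted p above 0.05 on group alone. In the fit with blocks Lct was at 0.28, with an unadjusted p of 0.0476. Distal markers summed to 104 to 317 CPM in sham and 197 to 374 CPM in pMCAO samples. Of those 5 genes, 3 had an unadjusted p under 0.05 on group alone, with positive values (Slc51a 0.50, Slc51b 0.68 and Guca2a 0.65, adjusted p-values 0.505 to 0.589), and 0 were called. With blocks 2 of the 5 (Slc51b and Guca2a) had an unadjusted p under 0.05. Fabp6 was at -0.47 and Slc10a2 at 0.04 on group alone, and both were negative with blocks, at -0.33 and -0.29. The part of these regional markers in the Bco1 difference was not tested. The 2 ISX targets had negative log2 fold changes on group alone (Bco1 -2.30, Scarb1 -0.61), and that of Isx was 0.29. None of the 3 passed in that fit, and Scarb1 and Isx did not pass with blocks either. For Isx the direction was not shared within blocks 1, 2 and 3 (1.15, 0.42 and -0.47). Whether ISX has a part in the values of Bco1 or Scarb1 was not tested.

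Among the other genes of uptake, Cd36, a fatty acid and carotenoid transporter, had a log2 difference of 0.65 (SE 0.27, adjusted p = 0.543) and 0.69 (SE 0.25, adjusted p = 0.264) with blocks, positive within each of them (1.27, 0.48 and 0.55). Bco2, which cleaves carotenoids off centre in mitochondria, had 0.90 (SE 0.49, adjusted p = 0.628) and 0.94 with blocks (SE 0.33, adjusted p = 0.230), at 1.89, 0.38 and 0.88 within them. Neither passed. Rdh16, the retinol dehydrogenase that shares sequence with Rdh7, had 1.19 (SE 0.49, adjusted p = 0.542) and 1.06 with blocks (SE 0.51, adjusted p = 0.406), at 1.12, 1.87 and 0.67 within them, from 2 to 235 raw counts per sample. Of the receptors, Rara had -0.38 (SE 0.19, adjusted p = 0.603) and -0.27 with blocks (SE 0.19, adjusted p = 0.598), and Rxra had 0.15 (SE 0.22, adjusted p = 0.873) and 0.24 with blocks (SE 0.18, adjusted p = 0.617). Rarb and Rarg were in the table but fell below the filter on low counts. The other 16 listed genes, not analysed here, were Stra6, Crabp1, Crabp2, Awat2, Rdh1, Rdh12, Rdh19, Sdr16c5, Sdr16c6, Aldh1a2, Aldh1a3, Aldh8a1, Cyp26a1, Cyp26b1, Cyp26c1 and Rxrg.

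**Figure D4:**
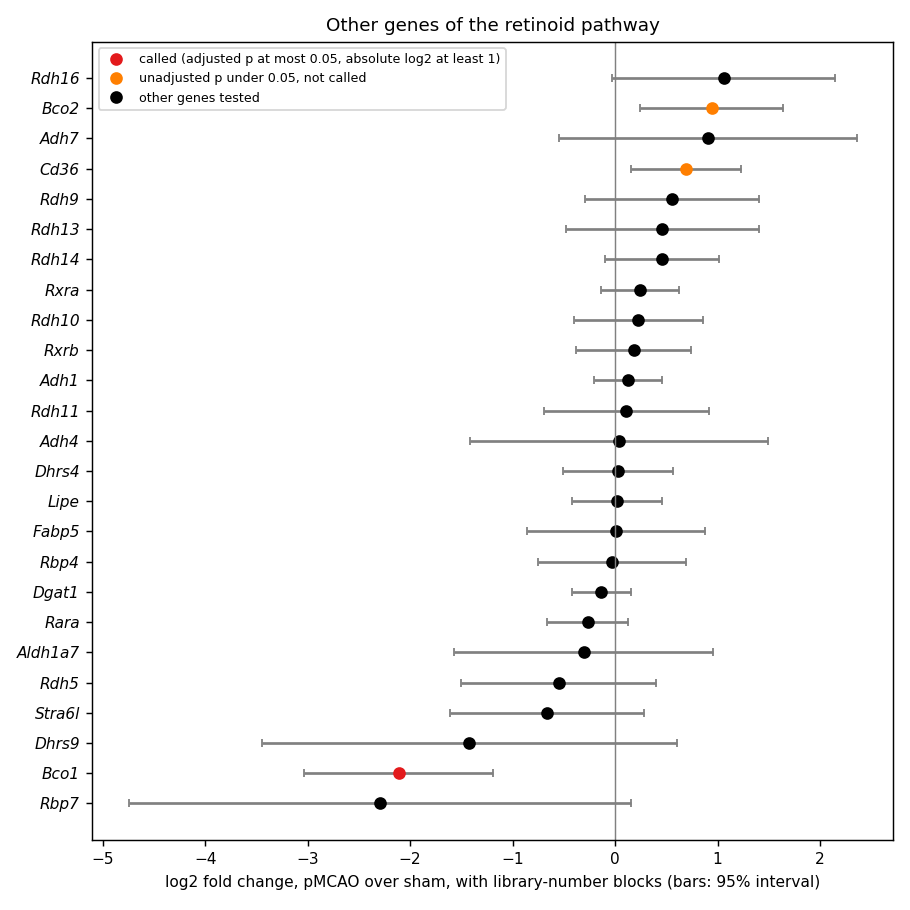
Log2 fold change of pMCAO over sham with its 95% interval for the further retinoid genes tested that are reported here, from the fit with library-number blocks. Bco1 (red) was the gene called, at -2.11, and Bco2 and Cd36 (orange) had an unadjusted p under 0.05 without passing the adjustment.

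Some of these genes also differed between library-number blocks. Block 1 was compared with the mean of blocks 2 and 3 in the fit with group and block. Of the 7 genes, 1 was called lower in block 1 (Aldh1a1), against 9.00% of all genes, and 0 were called higher, against 2.97%. Aldh1a1 measured 30.3, 12.2 and 23.9 CPM in the sham samples and 41.4 CPM in the pMCAO sample of block 1, while the other 8 samples spanned 35.1 to 109.8 CPM. The log2 difference was -1.29 (SE 0.39, 95% interval -2.13 to -0.46, adjusted p = 0.0310). It was called under all 3 alternatives of this contrast (log2 differences -1.75 to -1.41, adjusted p-values 0.0061 to 0.0157), which included the sham samples alone. The other 6 genes were between -0.50 for Rdh7 (adjusted p = 0.356) and 0.52 for Dhrs3 (adjusted p = 0.321) and did not pass. Goblet, enteroendocrine and tuft markers moved with the same blocks, as given above. Stem cell markers did too, with sums of 8.20 to 21.3 CPM in block 1 and 28.9 to 87.4 CPM elsewhere. Enterocyte sums were 23739 to 56528 CPM in block 1 and 15962 to 27706 CPM elsewhere, with overlap. The part of any of these markers in the Aldh1a1 difference was not tested.

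Of the 26 further genes tested, 6 were called lower in block 1 and 1 higher, against 9.00% and 2.97% of all genes. Adh1, an alcohol dehydrogenase that oxidises retinol, spanned 36.8 to 55.9 CPM in block 1 and 106 to 241 CPM in the other samples, a log2 difference of -1.82 (adjusted p = 5.7e-05). Stra6l, a receptor for circulating retinol binding protein, was at 0 to 2.23 CPM in block 1 and 5.84 to 39.8 CPM elsewhere. Rbp4, which carries retinol in plasma, Fabp5, which delivers retinoic acid, and Adh7 were also called lower in block 1. There they were at 0 to 1.69, 0.080 to 1.87 and 0 to 0.085 CPM, so these calls rest on few reads. Bco1 was higher in block 1, by a log2 difference of 1.48 (SE 0.39, adjusted p = 0.0150), so that its level differed both with surgery, in the fit with blocks, and between blocks.

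**Figure D5:**
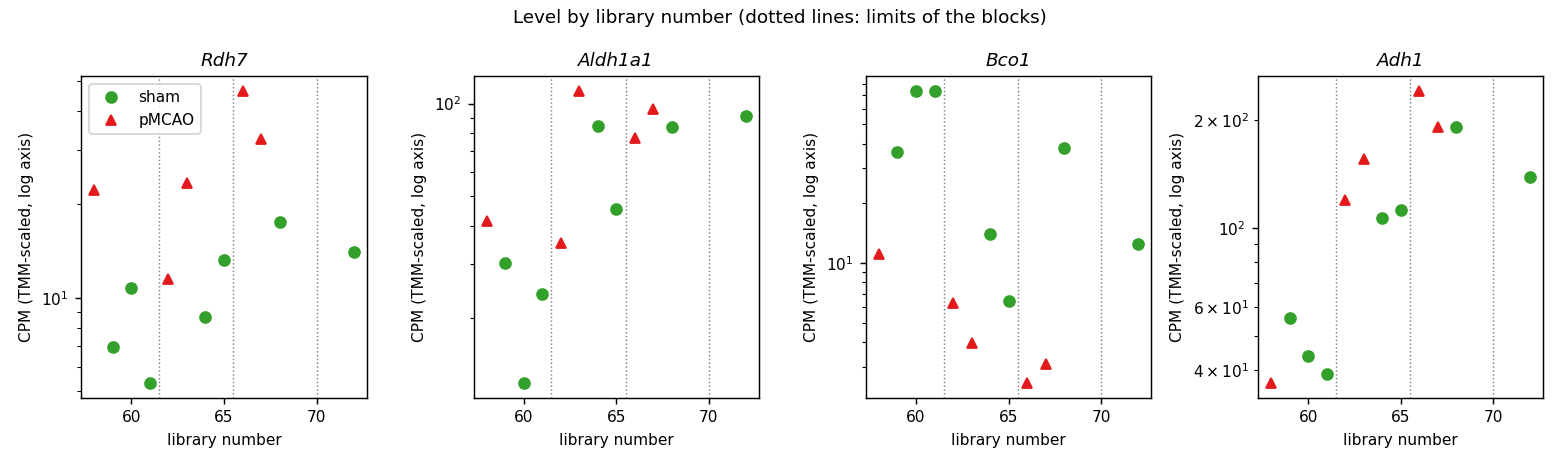
TMM-scaled CPM (log axis) of Rdh7, Aldh1a1, Bco1 and Adh1 against the library number in the sample title, with dotted lines between the library-number blocks. The 4 samples numbered 58 to 61 were low in Adh1 (36.8 to 55.9 CPM), and Bco1 was lower in the pMCAO samples (triangles) than in the sham samples (circles) within each of the 3 blocks that held both groups.

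Over the 8 samples outside block 1, the levels of the 7 genes were only loosely related to each other. Pearson's r of log2 CPM between pairs of them ran from -0.41 (Aldh1a1 and Isx) to 0.56 (Lrat and Rdh7). The genes most like each of them among all those tested were Zc3h4, Mapk1ip1 and Ephx2 for Rbp2 (r = 0.977 to 0.972), Sufu, Lactb2 and Clpx for Lrat (0.951 to 0.925), and Faah, Slc6a20a and Guca2b for Rdh7 (0.974 to 0.963). For Dhrs3 they were R3hdm2, Itga2b and Uaca (0.976 to 0.929), and for Aldh1a1 Zbtb25, Ndufb11 and Sp5 (0.9748 to 0.957). Isx was most like Cacybp, Ints6 and A430027C01Rik (0.956 to 0.923), and Scarb1 most like Unc50, Ero1l and Gm7204 (0.974 to 0.960). These are the highest values of a search over 14462 genes in 8 samples that share their depth and cell makeup across genes, and they are given as a description.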

How the data were processed

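RNA from sorted epithelial cells of 12 mice (7 sham, 5 pMCAO) was measured after ribosomal RNA cleavage by paired-end sequencing. Per the study's methods, the authors aligned reads to GRCm38 with STAR, counted them per gene with featureCounts (strand setting not given in the sources used here) and tested with limma-voom, corrected for the day of collection. The deposited counts were whole reads per gene. The deposited CPM equalled those counts over the sample total for 190260 of 190260 values (within 0.00051). The deposited table held genes reaching 0.5 CPM in at least 4 samples only (15855 of 15855). Its 5 columns of the authors' own comparison (fold changes, average expression, p-value and false discovery rate) were not used.

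Here counts were filtered with filterByExpr (minimum count 10, 1393 genes removed, 14462 kept), scaled by TMM and tested by voom in limma (version 3.58.1, in R 4.3.3, with edgeR 4.0.16 for filter and scaling) on group alone, with Benjamini-Hochberg adjustment over all genes kept. CPM in the text are TMM-scaled and fold changes are log2 of pMCAO over sham with the SE of the moderated fit. The study's thresholds were kept, and genes were called at an adjusted p up to 0.05 with a log2 fold change of 1 or more in either direction. Total counts were 7418730 to 31925579 per sample, and the fold change intervals hold the resulting precision.

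The labels do not give the day of collection. The 4 library-number blocks (numbers 58 to 61, 62 to 65, 66 to 68 and 72) are runs of the number in the sample titles. Their split points came from an earlier analysis of these data that had chosen them by the authors' deposited fold changes, so fits with blocks are not independent of those, and whether a block is a day of collection is not known. The genes, lists and tests were chosen with earlier results of these data known. Alternatives were edgeR, DESeq2 (1.42.0), limma-trend, sample weights, other scalings, filters, blocks and left-out samples. Scripts were tested on simulated data.

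Named were the 7 genes, listed genes with an unadjusted p under 0.05 in either fit, listed genes not analysed, the receptors Rara, Rarg and Rxra, Rarb as the other listed gene under the filter, and for each of the 7 the 3 genes of highest Pearson correlation of log2 CPM (prior count 2) over the 8 samples outside block 1. The listed genes named in the block comparison and the regional markers named beside Bco1 were chosen after their values were seen. Gene positions and exon lengths are from GENCODE M21 and promoters from RefSeq. Values of 1 listed gene are not reported here. None of the 7 genes shared exonic sequence with an overlapping gene.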

Additional observations from a re-analysis of the deposited data

How the results depend on the processing

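Against 0 genes called on group alone, DESeq2 called 70, limma-trend 1, sample quality weights 18, library-number blocks 47, blocks with edgeR 21 and blocks with DESeq2 97. With 1 sample left out in turn the count ran from 0 to 86, the highest without pMCAO replicate 3 with blocks (17 on group alone), while edgeR, other scalings, no filter and leaving out block 1 gave 0. Of the 7 genes, DESeq2 and blocks with DESeq2 each called 1 (Rdh7, log2 fold change 1.28 and 1.07), and leaving out 1 sample gave 0 to 1, with Rdh7 at 0.81 to 1.32. Of the other retinoid genes, DESeq2, blocks, blocks with edgeR and blocks with DESeq2 each called 1, and leaving out 1 sample gave 0 to 1. Lrat had no stable sign, at 0.0837 with edgeR, 0.0636 with DESeq2, 0.12 with limma-trend and 0.0770 with sample weights, and -0.30 to 0.23 with 1 sample left out. With 1 sample left out, Rbp2 spanned -0.033 to 0.77, Dhrs3 -0.037 to 0.57 and Aldh1a1 -0.082 to 0.67, and Isx and Scarb1 kept their sign. For block 1 against the others, Rbp2 was -0.39 and Scarb1 0.0085 in sham samples only, Lrat 0.14 with block 4 included and Scarb1 0.010 with edgeR. Causes of these differences were not tested.

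With the replicate number of the labels as a block, 243 genes were called, with 1 of the 7 (Rdh7, 1.58, adjusted p = 0.0227) and 3 of the other retinoid genes, and Lrat was 0.19. The numbers do not pair the samples, since the correlations of the deviations of same-numbered samples were 0.40, -0.24, -0.16, 0.16 and 0.082 and 1 of 5 pMCAO samples was closest to its own number.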
